A study of Acropora tenuis with 242 samples.

Results

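In juveniles of the reef-building coral Acropora tenuis, 25349 gene models were counted. Of these, 74 met a rule for standing higher under the symbiont uptake treatment labelled SED than under the other 3 treatments at ambient temperature. They were chosen by their levels. For each model the mean CPM (the count divided by the library total and multiplied by 1000000) was taken per treatment over the Ambient juvenile libraries, and log2(mean CPM + 1) was ordered over SED, D1, SS and C1. A member had its highest group mean at 10 CPM or more, SED on top, and its largest step between neighbouring treatments directly below SED, of at least 0.585 on the log2 scale. This step is called the lead of SED here. The rule allowed up to 100 members, but of the 10520 models that reached 10 CPM in at least 1 treatment only 74 met it, so all 74 were taken. Their Ambient levels chose them, so those levels are given as a description with no test.

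RNA was read by tag-based sequencing, which counts a short fragment per transcript. The juveniles came from 10 crosses within and between 5 Great Barrier Reef populations, written in the labels as BK, CU, DR, LS and SB, with both parental populations in the name of a cross (CUxDR). At Ambient there were 28 SED, 32 D1, 30 SS and 29 C1 juvenile libraries, and at Hot, the heated treatment, 15 SED, 6 D1, 6 SS and 0 C1 libraries. The larvae, sampled without a symbiont treatment, gave 96 libraries from 11 crosses, with 33 taken before the exposure (Pre), 33 after it at Ambient and 30 after it at Hot, a treatment with no LSxSB library. The labels do not spell out SED or SS, and they give neither ages nor temperatures in degrees nor cultures. The p-values therefore reflect how far libraries or crosses varied, or the treatments of a cross where larval crosses are compared. This variation may in part be technical.

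Reef corals house dinoflagellate algae inside cells of their inner tissue layer, and many Acropora take these algae up from their surroundings early in life. C1 and D1 are names in common use for types within the algal genera Cladocopium and Durusdinium. Uptake is known to involve recognition of the algal surface, engulfment by a host cell and later exchange of carbon and nitrogen compounds. The files do not pair gene models with gene names, so no function is given to any model below.

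Total counts ran from 158481 to 962906 per juvenile library and from 79712 to 1102351 per larval library, so at the median juvenile depth of 369970 counts a level of 10 CPM stands for only a few reads. At Ambient the SED libraries were the shallowest, with a median of 292327 counts, against 326345 in D1, 361994 in SS and 408772 in C1. The library names carry an index number, whose meaning is not stated. In 10 of 10 crosses every Ambient SED library had a higher index than all Ambient D1, SS and C1 libraries of the same block of numbers, so this order and the SED treatment cannot be told apart at Ambient. Among the Hot juveniles, a late block of index numbers held 14 of 15 SED, 4 of 6 D1 and 5 of 6 SS libraries.

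The members were mostly raised modestly in SED and mostly not abundant. The lead had a median of 0.71 and ran from 0.59 to 2.89 on the log2(CPM + 1) scale, and the ratio of the SED mean to the next highest mean had a median of 1.70. Only 16 members had a ratio of 2 or more. The SED mean ran from 10.2 to 3302 CPM with a median of 26.8, with 14 members at 100 CPM or more and 42 under 30 CPM. The next highest treatment was SS for 41 members, D1 for 21 and C1 for 12, and the lowest was C1 for 46, D1 for 15 and SS for 13. RNA came from whole samples, in which more cells of a type and more RNA per cell cannot be told apart.

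Summed over the 74 members, the Ambient SED libraries held 5523 to 13683 CPM with a median of 9465. The sums had medians of 2981 CPM in D1, 4146 CPM in SS and 2573 CPM in C1, and highest values of 5294, 7115 and 4244 CPM. The lowest SED library thus lay above every D1 and C1 library and overlapped with SS. One model, Amillepora28811-RA, carried much of the sum. Without it the medians were 5764 CPM in SED, 2537 CPM in D1, 2964 CPM in SS and 2252 CPM in C1.

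At the edge of the rule, Amillepora18092-RA was just inside with a lead of 0.59, from mean levels of 28.6 CPM in SED, 16.8 in D1, 17.3 in SS and 18.7 in C1. Amillepora24351-RA was just outside with a lead of 0.58, from 11.2 CPM in SED, 7.14 in D1, 6.91 in SS and 5.76 in C1. Amillepora04577-RA had a lead of 0.91 but missed the level, with 9.60 CPM in SED, 4.64 in D1, 4.47 in SS and 4.39 in C1. Members and non-members therefore meet without a break.

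Among the abundant members, the one with the widest lead was Amillepora01102-RA. This model and others named below without a rank or a test were picked after their values were seen. Its Ambient levels ran from 441 to 1963 CPM in SED with a median of 1111, from 13.0 to 611 CPM in D1 with a median of 127.1, from 0 to 613 CPM in SS with a median of 308 and from 2.41 to 328 CPM in C1 with a median of 44.8. Of the 28 SED libraries, 25 lay above every other Ambient library, the most of any member. The means were 1116 ± 383 CPM in SED, 153.7 ± 120.6 in D1, 322 ± 157 in SS and 76.1 ± 80.3 in C1 (SD, n = 28, 32, 30 and 29).

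Amillepora01105-RA, whose identifier number is close by, had the same order. Its Ambient levels ran from 155.1 to 768 CPM in SED with a median of 416, against medians of 49.7 CPM in D1, 144 CPM in SS and 23.2 CPM in C1. Here too 25 of 28 SED libraries lay above all others. Across the 28 Ambient SED libraries the log2 levels of the pair had a Pearson correlation of 0.955, while the median over all 2701 pairs of members was 0.008. The correlation was 0.954 over the 15 Hot SED libraries and 0.922 over the 96 larval libraries. Depth varied within each set, and the larval set spans Pre, Ambient and Hot larvae. Both models rose with larval heat (log2 fold change 1.89 and 2.07), so a shift between treatments enters the larval value. The part of depth was not tested. The summed level of Amillepora01102-RA was 2.54 times that of Amillepora01105-RA in Ambient SED, 2.33 times in the other Ambient juveniles, 2.62 times in Hot juveniles and 2.64 times in larvae. Whether the counting divided reads between similar models is not stated, so the 2 levels may not be separate measurements. Another member with a neighbouring number, Amillepora01106-RA, averaged 169 ± 61.4 CPM in SED, 86.4 ± 23.3 in D1, 93.7 ± 29.7 in SS and 84.5 ± 25.5 in C1.

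The most abundant member, Amillepora28811-RA, ran from 967 to 6383 CPM in Ambient SED with a median of 3535. It ran from 162 to 1177 CPM in D1 with a median of 401, from 306 to 2104 CPM in SS with a median of 1238 and from 220 to 514 CPM in C1 with a median of 282.7. The SED range overlapped with those of D1 and SS and lay wholly above that of C1, and 19 of 28 SED libraries exceeded every other library.

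Lower down the scale, Amillepora04825-RA averaged 17.3 ± 10.3 CPM in SED, 3.54 ± 3.63 in D1, 4.20 ± 3.45 in SS and 2.58 ± 3.62 in C1. It had no read in 2 of 28 SED, 12 of 32 D1, 7 of 30 SS and 12 of 29 C1 libraries. Amillepora24973-RA averaged 44.4 ± 33.0 CPM in SED, 13.2 ± 9.55 in D1, 9.02 ± 7.79 in SS and 10.3 ± 9.42 in C1. Its highest single libraries reached 137 CPM in SED and 41.6 CPM among the others, and 11 of 28 SED libraries lay above that.

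**Figure D1:**
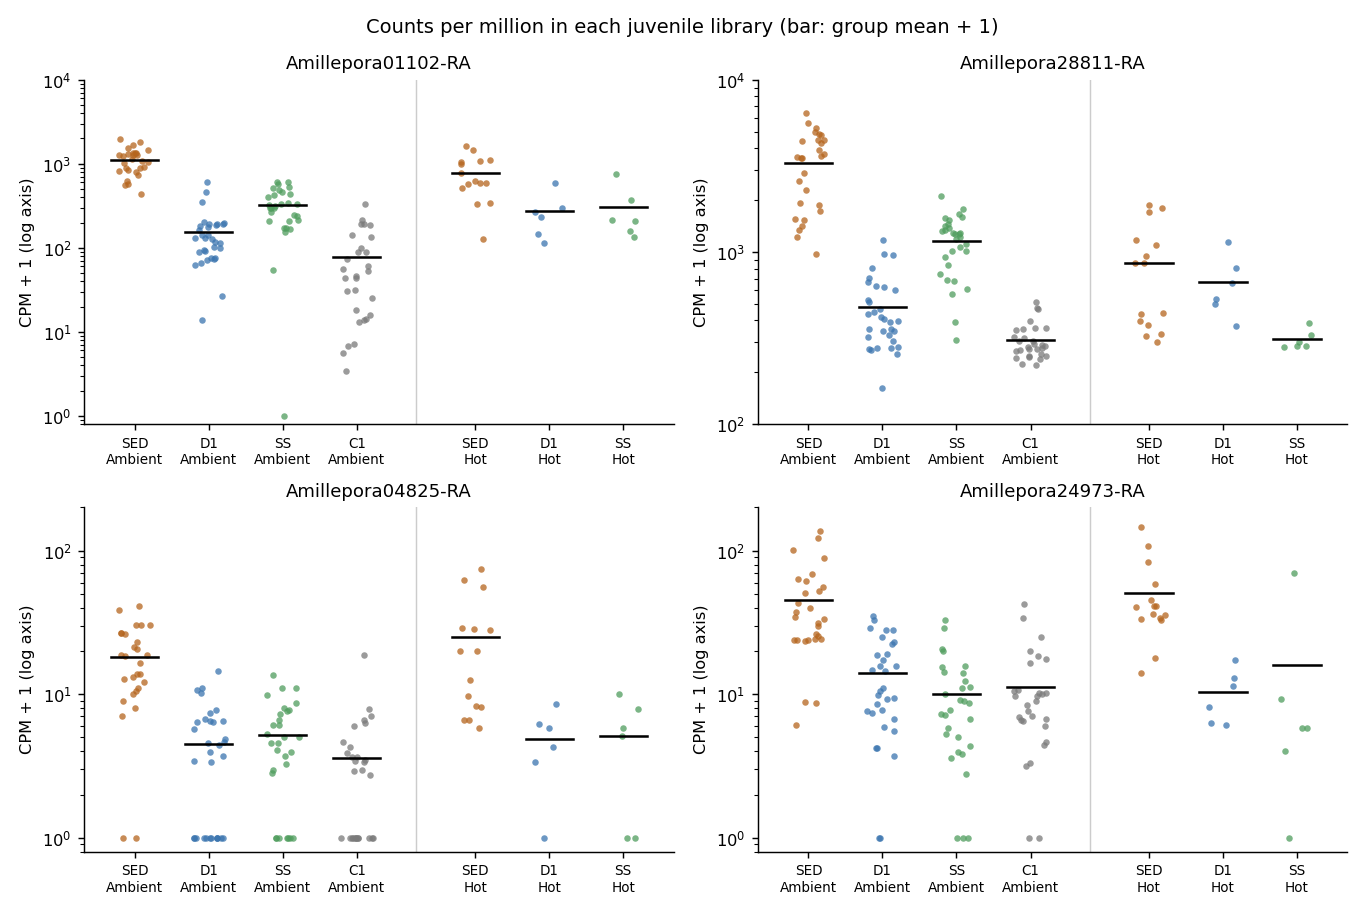
CPM plus 1, on a log axis, in every juvenile library for 4 members, with SED left of D1, SS and C1 at Ambient (left of the grey line) and SED left of D1 and SS at Hot (right of it). Each point is a library and each bar the group mean plus 1. Amillepora01102-RA shows 25 of 28 Ambient SED libraries above all other Ambient libraries, and Amillepora28811-RA averaged 861 CPM in Hot SED, against 3302 CPM in Ambient SED.

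The widest lead of all belonged to Amillepora21251-RA and rested on 1 library. Its mean of 15.1 ± 79.2 CPM in SED came from 419 CPM in CUxCU replicate 3, which held 99.1% of the summed SED level, while 26 of 28 SED libraries had no read of it. Without that library its SED mean was 0.14 CPM, against 1.17 CPM in D1, 0.34 CPM in SS and 0.61 CPM in C1. The member with the next widest lead, Amillepora10452-RA, had reads in all but 1 SED library and averaged 21.2 ± 15.7 CPM in SED, 3.37 ± 6.69 in D1, 4.55 ± 4.58 in SS and 1.67 ± 2.61 in C1. Amillepora02373-RA lay between these patterns, with 9 SED libraries above 0, up to 73.3 CPM, and 19 with no read.

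Across all members, the highest SED library held a median of 9.65% of the summed SED level. It held over 25% in 2 of the 74, Amillepora21251-RA and Amillepora07939-RA (30.7%, chosen here after its value was seen). The rule was met again by 40 members when each was taken without its own highest SED library and missed by 34. In 6 members all 28 SED libraries lay above the median of the other Ambient libraries, and in 5 no SED library lay above all of them.

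**Figure D2:**
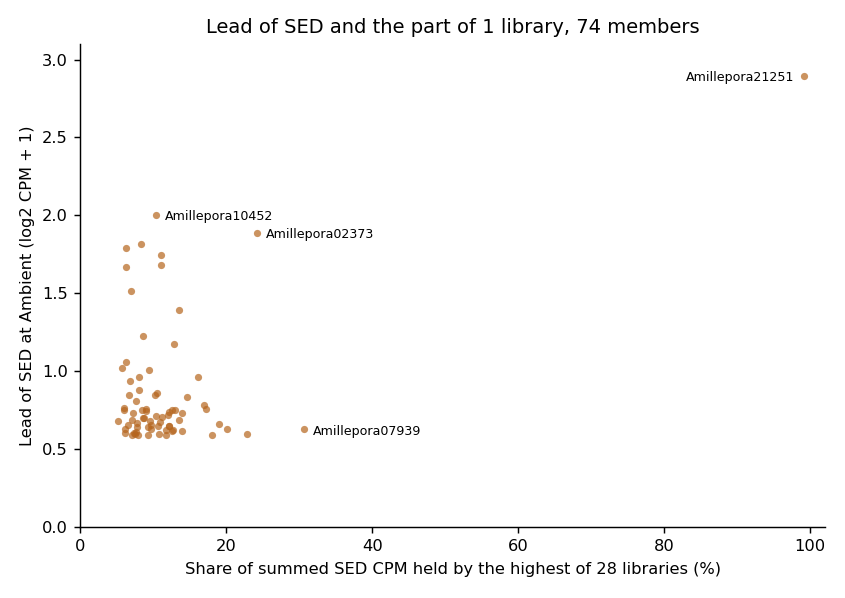
Lead of SED at Ambient (log2 of CPM + 1, vertical axis) against the share of the summed SED level held by the highest of 28 libraries (percent, horizontal axis), with each point a member. Amillepora21251-RA stands alone at 99.1%, and the median over members was 9.65%.

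By cross, SED was the highest treatment for 51 of 74 members in LSxLS and for up to 63 in DRxCU. The counts in the other crosses were 52 in CUxDR, 54 in CUxSB, 55 in DRxSB, 56 in BKxBK, 59 in CUxCU and in LSxCU, and 61 in DRxDR and in SBxSB. Over all 10520 models at 10 CPM or more, SED was highest in 26.1% in LSxLS and in 27.3% in DRxCU, with 24.6% in CUxCU to 29.3% in CUxDR over the 10 crosses. These libraries chose the members, so nothing is read from the contrast. The median lead within a cross ran from 0.29 in DRxSB to 0.68 in DRxCU. Each cross had 2 or 3 SED libraries.

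SED was highest in all 10 crosses for 16 members, where 0.399% of all models had this, and in at least 8 crosses for 46 members (2.68% of all models). The same Ambient libraries chose the members, so nothing is read from these contrasts either. The members at the other end were Amillepora21251-RA, with SED highest in 2 crosses, and 3 members with SED highest in 4. SED exceeded the mean of the other libraries in every cross for 30 members.

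Within SED the crosses differed most widely for members of low level. Amillepora01102-RA ran from 786 CPM in CUxDR to 1621 CPM in DRxDR, and Amillepora28811-RA from 2739 CPM in BKxBK to 5049 CPM in LSxLS. The level of Amillepora19310-RA was 4.44 CPM in BKxBK and 34.0 CPM in CUxSB, where the other treatments averaged 1.03 CPM. Amillepora04559-RA ran from 0 CPM in LSxLS to 42.3 CPM in CUxSB, and in CUxSB the other treatments also averaged 15.3 CPM. The median ratio of the highest to the lowest cross, on CPM + 1, was 3.58.

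**Figure D3:**
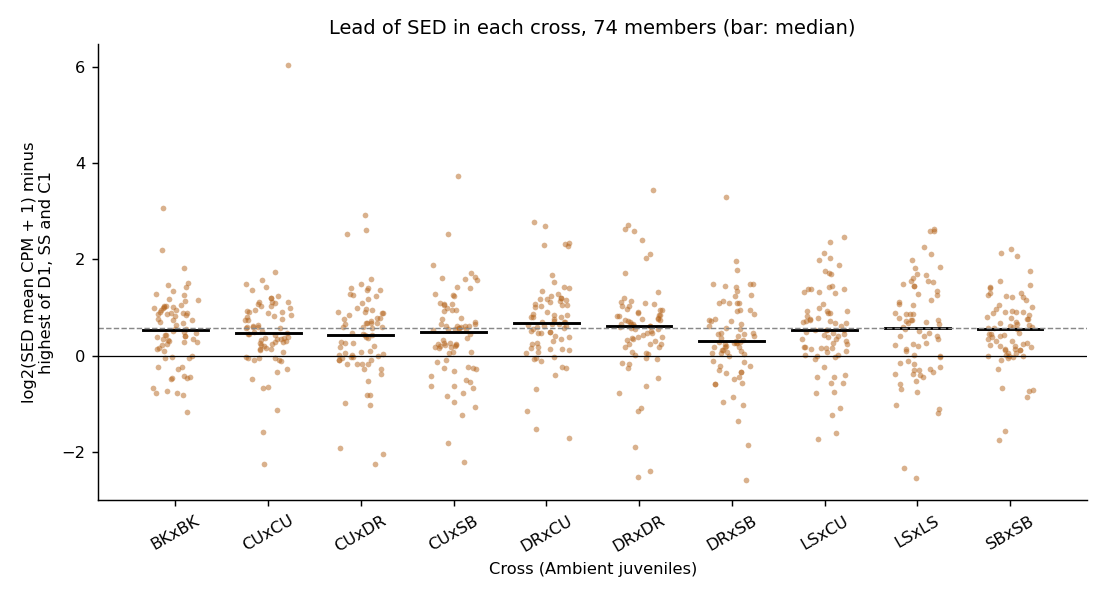
Lead of SED over the highest of D1, SS and C1 (difference of log2 mean CPM + 1, vertical axis) in each of the 10 crosses at Ambient, with each point a member and the bar the median of 74 members. The dashed line marks 0.585, and the medians lie between 0.29 in DRxSB and 0.68 in DRxCU. The single point at 6.04 in CUxCU is Amillepora21251-RA.

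At Hot, the summed level of the members was 3580 to 8627 CPM in SED with a median of 5792, 3652 to 7230 CPM in D1 with a median of 4643, and 3322 to 4913 CPM in SS with a median of 3438. The 3 ranges overlapped. In 5 of the 6 crosses with exactly 2 Hot SED libraries, the shallower library had the higher sum. The part of depth in this was not tested.

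Set against Ambient juveniles of the same crosses and treatment, the members stood lower at Hot in SED. Here 63 of 74 were lower, against 49.6% of all models at 10 CPM or more, with a median log2 difference (Hot minus Ambient) of -0.55 for the members and 0.004 for all models. This used 15 Hot and 19 Ambient SED libraries of 7 crosses. In D1, 52 of 74 were higher at Hot, against 47.5% of all models, with a median difference of 0.29 (6 Hot and 14 Ambient libraries, 4 crosses). In SS, 37 were higher at Hot and 37 lower, against 47.7% and 52.3% of all models, with a median difference of 0.009 (6 Hot and 9 Ambient libraries, 3 crosses). The late index block held 14 of 15 Hot and 0 of 28 Ambient SED libraries, 4 of 6 Hot and 2 of 32 Ambient D1 libraries, and 5 of 6 Hot and 0 of 30 Ambient SS libraries, so temperature and block can hardly be told apart here. No test is given, because the Ambient libraries chose members for being high in SED and low in D1 and SS.

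Amillepora28811-RA averaged 887 CPM at Hot, against 3454 CPM at Ambient, over the 7 SED crosses. In D1 it averaged 664 CPM at Hot and 459 CPM at Ambient over 4 crosses, and in SS 309 CPM at Hot and 1024 CPM at Ambient over 3 crosses. All 6 Hot SS libraries lay between 279.3 and 387 CPM. For Amillepora01102-RA the SED mean was 776 CPM at Hot and 1123 CPM at Ambient, and the D1 mean 251.6 CPM at Hot and 144 CPM at Ambient. Amillepora04825-RA and Amillepora24973-RA were among the 11 members higher at Hot in SED (50.4% of all models were), with 24.8 CPM at Hot and 21.2 CPM at Ambient for Amillepora04825-RA and with 48.1 CPM at Hot and 42.7 CPM at Ambient for Amillepora24973-RA.

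The Hot libraries were not used by the rule, so the treatments could be tested there. Every member had reached 10 CPM in Ambient SED, while the other models could reach it in any treatment. The shares of members and of all models below are therefore not read against each other. Group means covered 7 crosses in SED, 4 in D1 and 3 in SS, with BKxBK in SS only. By group means alone, SED exceeded D1 in 44 of 74 members, where 53.2% of all models did, and exceeded SS in 46, where 51.3% did. It was the highest of the 3 treatments in 32 members, or 43.2%, with 33.9% as the share over all models. SED was at least 1.5 times both others (on CPM + 1) in 9 members, or 12.2%, where 1.47% of all models were. It exceeded D1 in each of the 4 crosses with both for 18 members (24.3%, against 12.0% of all models) and SS in each of the 2 crosses with both for 33 members (44.6%, against 24.8%). By cross, SED exceeded D1 for 51 members in CUxDR (54.1% of all models), 46 in DRxSB (54%) and 50 in SBxSB (52.38%). In LSxLS it did so for only 31 of 74 (48.59% of all models). SED exceeded SS for 47 members in DRxSB (48.33% of all models) and 46 in SBxSB (49.62%).

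**Figure D4:**
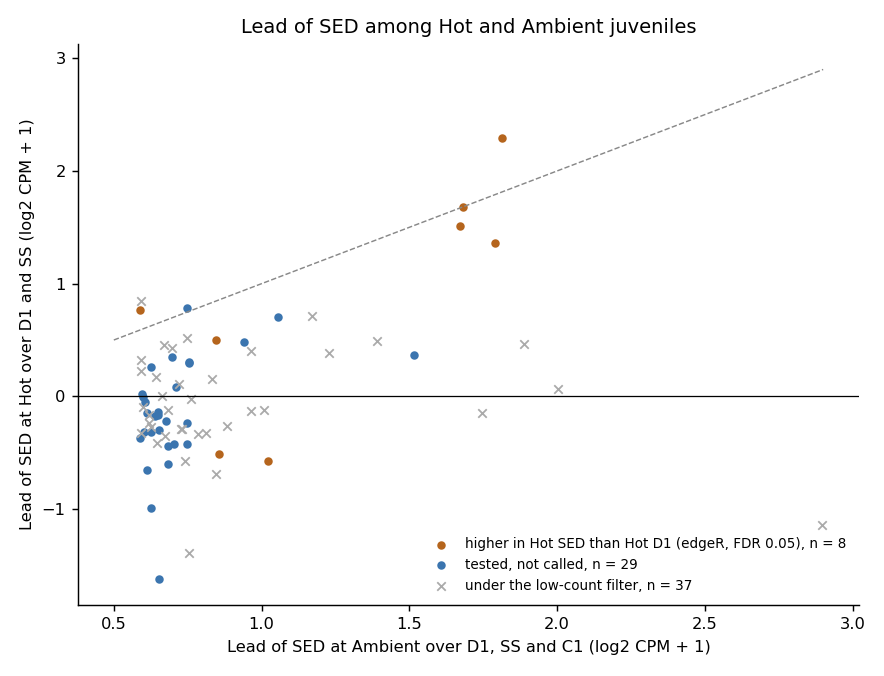
Lead of SED at Hot over the higher of D1 and SS (vertical axis) against its lead at Ambient over D1, SS and C1 (horizontal axis), both as differences of log2 mean CPM + 1, with each point a member and the dashed line marking equal leads. Brown marks the 8 members called higher in Hot SED than in Hot D1, blue the 29 tested and not called, and grey crosses the 37 under the low-count filter. The Ambient lead chose the members and the Hot lead has no C1 in it, so the place of the points against the dashed line is not read.

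In the fit over all 27 Hot juvenile libraries, with cross as a term, 37 members passed the low-count filter among 8005 models. With edgeR's quasi-likelihood test and a false discovery rate of 0.05 after Benjamini-Hochberg adjustment (the expected share of false calls among those made), 8 members were higher in Hot SED than in Hot D1. Over all models tested, 0.537% were called higher. The filter asked for a minimum of reads in as many libraries as the smallest treatment has. SED libraries alone could therefore carry a model into the test. Amillepora04825-RA, called here, had at most 7.61 CPM in Hot D1 and 8.98 CPM in Hot SS, with a mean of 24.1 CPM in Hot SED. The count of 8 is therefore not read against the share of all models. Of the same 37 members, 0 were called lower (1.36% of all models) and 0 by DESeq2. At an unadjusted p under 0.05, 1 member was lower, where 630 of the 8005 models were. The count of 8 depended on single libraries and crosses. It was 0 without SBxSB, 2 without CUxDR and 4 without LSxLS. It was 3 without CUxDR D1 replicate 1, 5 without LSxLS D1 replicate 2, and 4 without SBxSB D1 replicate 1, SBxSB D1 replicate 2, DRxSB SED replicate 1 or LSxLS SED replicate 2.

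Amillepora04825-RA had the largest fold change of these. Its Hot SED libraries ran from 4.85 to 73.9 CPM with a median of 18.9, and its D1 libraries held 7.61 CPM in CUxDR, 3.28 in DRxSB, 2.36 and 5.21 in LSxLS, and 0 and 4.79 in SBxSB. The groups overlapped at the lower end of SED. The fitted log2 fold change of SED over D1 was 2.83 ± 0.59 (SE, edgeR adjusted p = 0.00861), and SED was higher in 4 of 4 crosses. With only 6 D1 libraries, the adjusted p was 0.122 without the replicates numbered 1, 0.238 without those numbered 2, 0.0928 without LSxLS, 0.0782 without SBxSB and 0.109 in the late index block alone. The log2 fold change in these runs was 2.78, 2.53, 2.41, 2.92 and 2.40, in the same order.

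Amillepora24973-RA ran from 13.1 to 145 CPM in Hot SED with a median of 39.5, and held 5.07 CPM in CUxDR D1, 16.4 in DRxSB D1, 7.09 and 10.4 in LSxLS D1, and 5.31 and 11.97 in SBxSB D1. The lowest SED library lay within the D1 range. Its log2 fold change was 2.10 ± 0.56 (SE, edgeR adjusted p = 0.0454), with SED higher in 4 of 4 crosses. This call was lost in 19 of the 43 runs that changed a single choice, among them leaving out any 1 of 5 of the 6 D1 libraries. With a replicate number or a library left out, the log2 fold change lay between 1.56 and 2.72.

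Amillepora01102-RA ran from 125 to 1632 CPM in Hot SED with a median of 621, and held 112 CPM in CUxDR D1, 264.3 in DRxSB D1, 586 and 294.5 in LSxLS D1, and 146 and 235 in SBxSB D1. The ranges overlapped, and the SED median lay above all 6 D1 libraries. Its log2 fold change was 1.89 ± 0.41 (SE, edgeR adjusted p = 0.0128). The neighbouring Amillepora01105-RA (1.78 ± 0.44, edgeR adjusted p = 0.0301) and Amillepora01106-RA (1.14 ± 0.23, edgeR adjusted p = 0.00736) were also called. The other 3 were Amillepora26052-RA, Amillepora19906-RA and Amillepora18092-RA, and over the 8 the fold change ran from 1.87 to 7.10. Of the 8, 5 had an Ambient ratio of 2 or more.

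Against Hot SS the same fit called 0 of 37 members higher and 0 lower, and 0.0% of the 8005 models in either direction, so this comparison made no call at all. At an unadjusted p under 0.05, 7 members were higher and 2 lower, where 200 of the 8005 models were higher and 144 lower. DESeq2 called 0 members either way. The fitted fold change of SED over SS was above 0 for 30 of the 37 members and for 50.2% of all models. That of SED over D1 was above 0 for 24 members and below 0 for 13, with 51.3% of all models above 0. The same low-count filter can admit members through SED libraries alone, so the members' counts are not read against those of all models. Amillepora17944-RA was 1 of the 2 lower at an unadjusted p under 0.05, with 26.2 ± 12.1 CPM in Hot SED and 82.9 ± 51.0 CPM in Hot SS and a fitted log2 difference of -1.56 ± 0.46 (SE, edgeR adjusted p = 0.846). Amillepora26052-RA ran from 72.7 to 378 CPM in Hot SED with a median of 175.8, from 71.02 to 146.1 CPM in Hot D1 with a median of 107.0, and from 148.5 to 411 CPM in Hot SS with a median of 273.9. The Hot SS libraries include BKxBK, a cross with no Hot SED library, and with cross as a term the fitted log2 fold change of SED over SS for Amillepora26052-RA was 0.056 ± 0.24 (SE, edgeR adjusted p = 1). Within crosses the log2 difference of SED minus SS was 0.18 in DRxSB and -0.017 in SBxSB. Amillepora10452-RA, second by its lead, averaged 13.1 ± 11.5 CPM in Hot SED, 12.5 ± 6.06 in Hot D1 and 2.86 ± 6.25 in Hot SS, where 4 of 6 libraries had no read of it.

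Of the 74 members, 73 were in the larval table. The stages were counted in separate tables, so levels are set side by side only. The mean Ambient larval level, averaged over crosses, ran from 0.17 to 2400 CPM with a median of 10.6, against a median of 27.1 CPM for the same members in Ambient SED juveniles. In 10 members the larval mean was the higher one, where 43.8% of all models had this, and the larval mean was more than 10 times lower in 14 members and more than 10 times higher in 2. Nothing is read from these counts, because the members were chosen for a high SED level. Amillepora13528-RA averaged 2400 CPM in Ambient larvae and 231.2 CPM in Ambient SED juveniles. Amillepora19310-RA averaged 808 CPM in Ambient larvae and 18.2 CPM in Ambient SED juveniles.

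Larval treatments were tested on counts summed per cross and treatment, 32 profiles in all, with cross as a term. Of the 73 members, 59 passed the low-count filter and 14 did not. With larval heat, 12 of the 59 rose (20.3%) and 13 fell (22.0%) at a false discovery rate of 0.05, where 22.5% of 12548 models rose and 22.3% fell. The median log2 fold change was -0.078 for the members and -0.006 for all models. The members' shares were close to those of all models in both directions.

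Among those that rose, Amillepora23547-RA averaged 29.2 ± 7.73 CPM in Hot larvae and 6.79 ± 2.86 CPM in Ambient larvae of the same 10 crosses, with no cross overlapping (18.9 CPM was the lowest at Hot and 12.7 the highest at Ambient). Its log2 fold change was 2.11 ± 0.26 (SE, edgeR adjusted p = 5.13e-07), higher in 10 of 10 crosses. Amillepora01105-RA averaged 81.6 ± 18.5 CPM in Hot larvae and 19.5 ± 8.40 in Ambient larvae, with a log2 fold change of 2.07 ± 0.16 (edgeR adjusted p = 9.8e-10) and 10 of 10 crosses higher. Amillepora01102-RA averaged 208 ± 45.7 CPM in Hot larvae and 57.3 ± 25.7 in Ambient larvae, with a log2 fold change of 1.89 ± 0.19 (edgeR adjusted p = 2.51e-08), while Amillepora01106-RA did not pass the test.

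Among those that fell, Amillepora13528-RA averaged 734 ± 309 CPM in Hot larvae and 2405 ± 1027 CPM in Ambient larvae, a log2 fold change of -1.69 ± 0.27 (SE, edgeR adjusted p = 1.64e-05), lower in 10 of 10 crosses. CUxBK stood far below the other crosses, with 128.2 CPM at Hot and 176 CPM at Ambient. Amillepora04825-RA averaged 4.41 ± 3.11 CPM in Hot larvae and 11.9 ± 4.23 in Ambient larvae, a log2 fold change of -1.48 ± 0.31 (SE, edgeR adjusted p = 0.00039), lower in 9 of 10 crosses. Of the 8 members higher in Hot SED than in Hot D1 juveniles, 4 rose with larval heat and 2 fell, where 22.5% of all models rose and 22.3% fell. The 4 include Amillepora01102-RA and Amillepora01105-RA, which may not be separate measurements. Nothing is read from so few members.

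Between Pre and Ambient larvae, 9 of the 59 members rose (15.3%, against 4.10% of all models) and 8 fell (13.6%, against 7.67%). This comparison and larval heat share the Ambient larvae, so their values are given apart. Amillepora24973-RA averaged 10.95 ± 6.33 CPM in Ambient larvae and 5.26 ± 2.72 CPM in Pre larvae, a log2 fold change of 0.96 ± 0.27 (SE, edgeR adjusted p = 0.0238), higher in 9 of 11 crosses. This call was lost in 8 of 19 alternatives, at adjusted p between 0.0530 and 0.0727, while the log2 fold change stayed between 0.79 and 1.25. Amillepora32132-RA averaged 185.8 ± 67.7 CPM in Ambient larvae and 102 ± 46.4 in Pre larvae, a log2 fold change of 0.90 ± 0.19 (SE, edgeR adjusted p = 0.00311), higher in 11 of 11 crosses. The count of 9 was 5 without DRxSB, and the count of 8 was 4 without DRxSB and 5 without SBxBK.

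Amillepora17944-RA averaged 7.52 ± 6.67 CPM in Ambient larvae and 30.8 ± 31.6 CPM in Pre larvae. Its log2 fold change was -1.84 ± 0.52 (SE, edgeR adjusted p = 0.0211), but only 7 of 11 crosses were lower, and the call was lost without DRxDR, DRxSB, LSxSB or SBxBK (adjusted p between 0.0514 and 0.0827). Amillepora10452-RA averaged 6.46 ± 2.36 CPM in Ambient larvae and 19.4 ± 13.8 in Pre larvae, a log2 fold change of -1.52 ± 0.31 (SE, edgeR adjusted p = 0.00216), lower in 9 of 11 crosses.

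**Figure D5:**
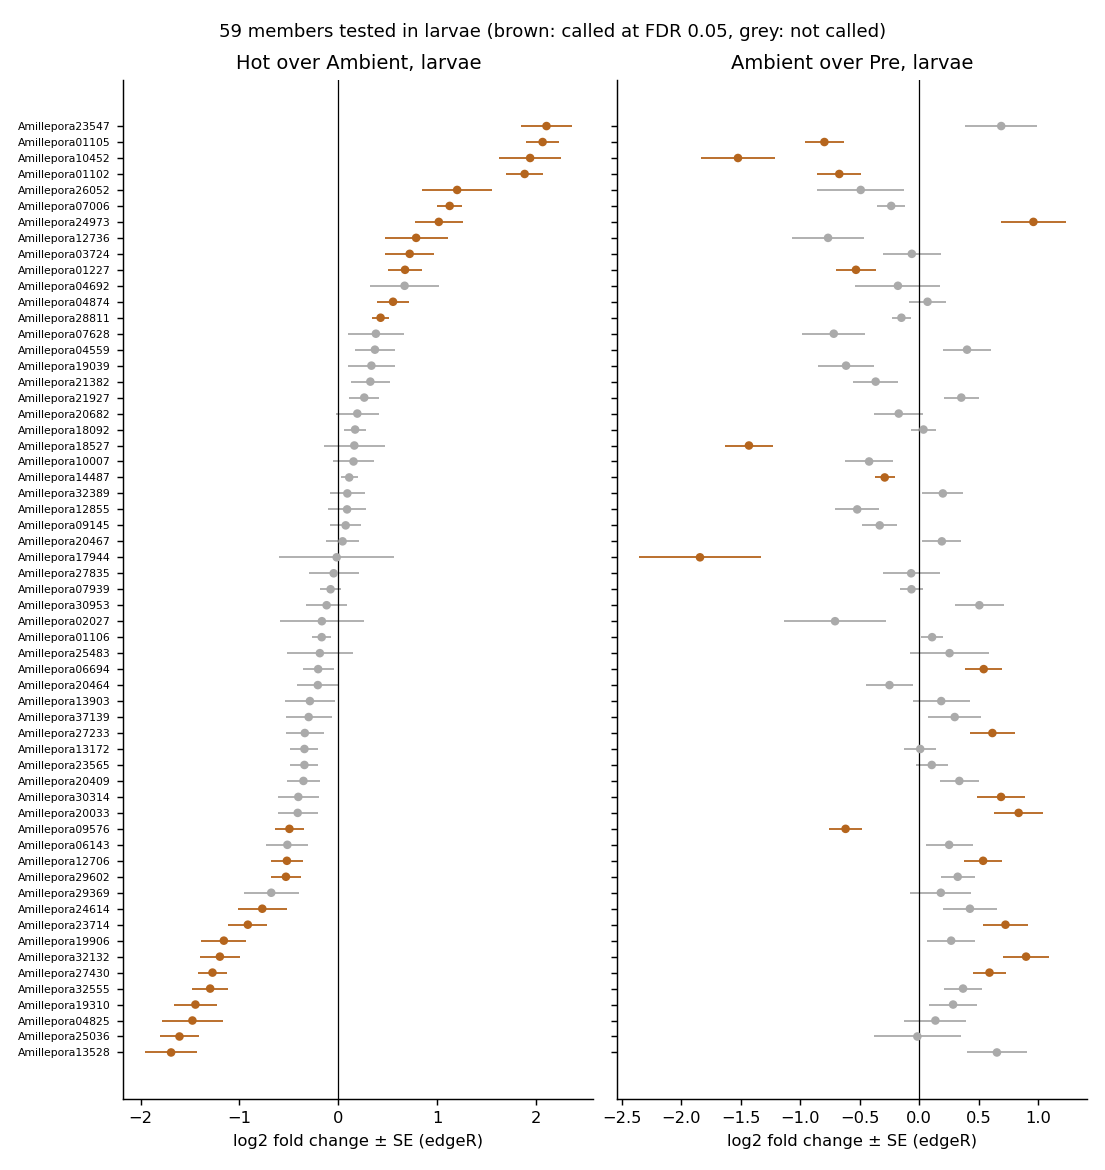
Fitted log2 fold change with its standard error for the 59 members tested in larvae, ordered by the change with heat (Hot over Ambient, left) and shown in the same order for Ambient over Pre (right). Brown marks members called at a false discovery rate of 0.05, which are 12 higher and 13 lower with heat and 9 higher and 8 lower between Pre and Ambient.

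Differences between larval crosses were called in 25 of the 59 members (42.4%, against 25.7% of all models) by an F-test over the cross terms. Each cross entered only as its summed Pre, Ambient and Hot profiles (LSxSB had no Hot). The p-values here reflect how far cross differences varied between these profiles, not between separate cultures of a cross. Among the 25 members, Amillepora04559-RA was the clearest (F = 25.6, edgeR adjusted p = 8.25e-08). Averaged over treatments it had 33.8 CPM in CUxSB, 29.9 in CUxBK, 29.7 in CUxCU and 24.0 in BKxBK, while the other 7 crosses lay between 1.47 CPM in SBxSB and 9.43 CPM in SBxBK. In Ambient SED juveniles CUxSB was also the highest cross, while the lowest was LSxLS at 0 and not SBxSB. CUxSB and LSxLS had only 2 Ambient SED libraries each. Amillepora19310-RA (F = 15.8, edgeR adjusted p = 3.73e-06) had 30.7 CPM in CUxBK larvae, with the other 10 crosses between 312 CPM in CUxCU and 999 CPM in LSxLS.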

How the data were processed

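The authors deposited raw read counts per gene model and library, 1 table per life stage, and per the submitters' processing notes Bowtie2 (version 2.2.9) was used. For the reference, the counting step and duplicate reads, the method is not given in the sources used here. All 242 libraries were matched to the labels by the title in the column name. Of 96 larval and 134 juvenile replicate pairs, 0 agreed within sampling noise (chi-square test of counts). The test pools many models, so even a small excess of spread counts as disagreement. Chi-square per degree of freedom ran from 1.05 to 4.24 in larvae and from 2.18 to 9.46 in juveniles, where 1 stands for sampling noise alone. Members and comparisons were chosen with earlier results of these data known.

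Levels are CPM on column totals. Tests used edgeR 4.0.16 in R 4.3.3 (glmQLFit, glmQLFTest, filterByExpr, TMM library sizes, Benjamini-Hochberg over all models tested), checked on simulated data. DESeq2 1.42.0 was an alternative. Others were its size factors, no low-count filter, a rate of 0.01, no cross term, single larval libraries, these with a replicate block, and leaving out replicates, libraries, crosses or the early index block. Named by rule were the 2 members with the widest lead, those at ranks 100 and 101 (which did not exist), and, per tested comparison, up to 2 called higher and 2 lower with the largest change and a mean log2 CPM of at least 3. Other models were chosen after their values were seen. The gene lists foreseen for named models could not be used without names.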

Additional observations from a re-analysis of the deposited data

Results flagged for a closer look

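Among 15 members examined, 59 groups of 6 or 10 values were searched for a highest or lowest value far from the rest, by Dixon's 95% critical value, and 13 had one. Chance flags about 1 in 20 groups of normally distributed values, and the groups share libraries. Most groups hold CPM that was not put on a log scale, so this rate may not apply.

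In Hot SS juveniles, SBxSB replicate 1 stood apart for Amillepora01105-RA (267.7 CPM, next highest 91.98), Amillepora10452-RA (15.55 CPM, next 1.614) and Amillepora24973-RA (69.09 CPM, next 8.275). BKxBK replicate 1 stood apart for Amillepora04559-RA (14.96 CPM) and BKxBK replicate 2 for Amillepora21251-RA (8.747 CPM). In Hot D1 juveniles, LSxLS replicate 1 was high for Amillepora13528-RA (297.8 CPM) and LSxLS replicate 2 for Amillepora17944-RA (78.2 CPM).

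In Hot larvae, CUxBK was the outlying cross for 4 members. It was the highest cross for Amillepora01106-RA (87.2 CPM), Amillepora04825-RA (12.11 CPM) and Amillepora17944-RA (34.35 CPM), and the lowest for Amillepora24973-RA (9.806 CPM, next lowest 19.07). At Ambient, the lead of SED stood apart in CUxSB for Amillepora19310-RA (3.739) and in CUxCU for Amillepora21251-RA (6.041), both on the log2 scale.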

How the results depend on the processing

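Larval heat counts stayed within 1.5 times the reported ones in every alternative run. Larval cross counts did so in the 9 alternatives run for them. None of these left out a cross, so how far that count rests on single crosses was not tested. The 8 members higher in Hot SED than in Hot D1 became 2 at a rate of 0.01, 13 with no low-count filter, 2 with no cross term, 2 without CUxDR, 4 without LSxLS, 0 without SBxSB, 3 in the late index block alone, and 2 to 9 over replicate numbers and libraries left out. The 0 lower became 2 with no low-count filter, with a range of 0 to 2. Against Hot SS, with no low-count filter, 5 were higher and 1 lower, and leaving out replicates gave 0 to 2 higher. Between Pre and Ambient larvae, the 9 higher became 3 at a rate of 0.01, 5 without DRxSB and 4 to 6 without a replicate number. The 8 lower became 4 at a rate of 0.01, 4 without DRxSB, 5 without SBxBK, and 13 with libraries in place of sums, with or without a replicate block. Larval replicate numbers did not pair libraries: same-numbered libraries of a cross had a median correlation of deviations of -0.006, over 0.1 in 3 of 93 pairs. Juvenile replicates are numbered only in order, so no paired fit was made there. The rule, reapplied, returned 42 of the 74 with medians in place of means, 40 without each model's own highest SED library and 45 to 49 without a replicate number. The cause of these changes was not tested, and most members stand on few reads per library.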
